A study of Mus musculus with 4 samples.

Results

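The 7 genes described here encode very large proteins that link the parts of the cytoskeleton to each other and to membranes, or that pull on them as motors: Dst, Macf1, Ahnak, Tln1, Dync1h1, Myh9 and Myo18b. They were taken by name from a deposited table of 1000 genes, and all 7 are listed there. All samples were tibialis anterior skeletal muscle of Dmd Dup2 mice, a mouse model of Duchenne muscular dystrophy with a duplication in the dystrophin gene. The untreated control muscle and the muscle treated with scAAV9.U7-ACCA, an adeno-associated virus vector for exon skipping, share that genotype, and no muscle without the mutation was analysed here. From each condition there was 1 RNA-Seq library, which measures mRNA, and 1 library of ribosome-protected fragments, called footprints, which are the stretches of mRNA that ribosomes cover. Age, sex, dose, time after treatment and the number of animals are not stated in the labels used here.

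A muscle fibre passes force from its sarcomeres to the membrane and the matrix through layers of linking proteins, and dystrophin is one of those links. Plakins such as Dst and Macf1 bridge actin filaments and microtubules, talin ties integrins to actin, and Ahnak is a scaffold under the plasma membrane. Dynein carries cargo along microtubules, while nonmuscle myosin II, a heavy chain of which is encoded by Myh9, contracts actin bundles in most cell types. Myo18b is a myosin of striated muscle that is needed to assemble sarcomeres.

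With 1 library per group there is no estimate of the spread between animals, so the 2 conditions are described without a test or p-value. Each treated to untreated ratio is given with a 95% interval that covers counting error only. Ratios use libraries scaled by TMM, a method that assumes most genes do not differ. Scaled levels are given as TMM-scaled CPM, the counts-per-million scale taken over the listed genes. A gene is called higher or lower when its ratio is at least 1.5-fold, its interval excludes 1 and its compared libraries hold at least 50 reads together. All 7 genes passed that minimum in mRNA and in footprints. The untreated mRNA library was the shallowest, with 125236 reads over the listed genes against 4248818 in treated mRNA, 3349015 in untreated footprints and 1664122 in treated footprints. The 7 genes held 51 to 224 reads each in untreated mRNA, 825 to 15877 in treated mRNA, 1081 to 5504 in untreated footprints and 382 to 3187 in treated footprints. The choice of scaling moves all ratios of a comparison together. The median gene had an mRNA log2 ratio of 0.06 with TMM and −0.82 with the authors' own library constants, a shift of −0.88. Values are therefore also given relative to the median listed gene, which no scaling changes.

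In mRNA, 4 of the 7 genes were called higher in treated muscle (Dst, Ahnak, Macf1 and Dync1h1), 1 was called lower (Myh9) and 2 were called neither way (Tln1 and Myo18b). Over all 996 listed genes compared, 31.8% were called higher and 24.8% lower. Most listed genes were thus called one way or the other in mRNA, although TMM assumes that most do not differ. In footprints only Dst of the 7 was called, as higher, while over all genes compared 19.9% were called higher and 26.2% lower. The median mRNA log2 ratio of the 7 genes lay 0.73 above that of all genes, and their median footprint log2 ratio lay 0.06 below it (−0.06). Together the 7 genes made up 0.561% of the listed reads in untreated mRNA (95% exact binomial interval 0.521 to 0.604) and 0.954% (0.945 to 0.963) in treated mRNA. They made up 0.508% (0.501 to 0.516) of untreated and 0.618% (0.606 to 0.63) of treated footprints. Dst and Ahnak had the highest mRNA ratios of the 7. Without them the remaining 5 genes made up 0.296% (0.267 to 0.328) of untreated and 0.218% (0.214 to 0.223) of treated mRNA. Their footprint shares were 0.297% (0.291 to 0.302) and 0.313% (0.304 to 0.321). All these shares are of the listed totals, a scaling with which the median gene itself had an mRNA log2 ratio of −0.6. With TMM, Macf1 and Dync1h1 of these 5 were called higher in mRNA and Myh9 lower.

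**Figure D1:**
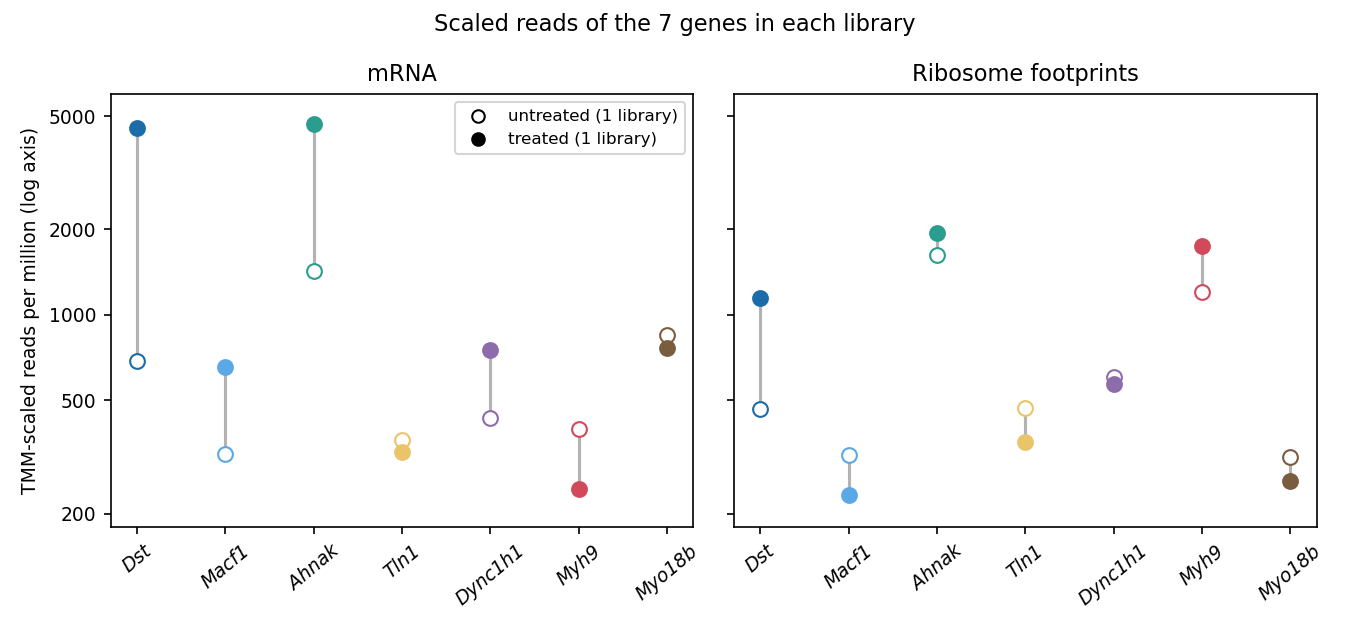
Scaled reads of each of the 7 genes in the 4 libraries, as TMM-scaled CPM on a log axis, with open circles for untreated and filled circles for treated muscle (1 library each, no error bar). The vertical gap within a gene is its difference between conditions, largest for Dst mRNA (689 to 4550); heights are not comparable between genes, whose lengths differ.

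Dst (NM_134448) encodes dystonin, a plakin with actin-binding and microtubule-binding ends that also has forms joining intermediate filaments. It had 108 reads in untreated mRNA, 15382 in treated mRNA, 1585 in untreated footprints and 1897 in treated footprints. Scaled to TMM CPM, these were 689 in untreated and 4550 in treated mRNA and 465 and 1150 in footprints, so both treated libraries were high. Its mRNA was 6.61-fold higher (5.47 to 8.06), which placed it 11th from the top of the 996 genes, 2.67 log2 units above the median gene. Footprints on Dst were 2.48-fold higher (2.32 to 2.65), 1.33 log2 units above the median gene. Both calls held under all 6 scalings tried, with mRNA log2 ratios from 1.84 to 2.72 and footprint log2 ratios from 1.04 to 1.38.

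Macf1 (NM_001199136), the other spectraplakin, crosslinks actin and microtubules in many cell types. It had 51 reads in untreated mRNA, 2219 in treated mRNA, 1098 in untreated footprints and 382 in treated footprints. The TMM-scaled CPM were 325 in untreated and 657 in treated mRNA and 322 and 232 in footprints, with treated mRNA the highest and treated footprints the lowest of the 4. Its mRNA was 2.02-fold higher (1.53 to 2.72) in treated muscle with TMM, a call that 4 of 6 scalings made and that the listed totals and the authors' constants did not. Macf1 footprints were at a ratio of 0.72 (0.639 to 0.81), under the fold threshold with TMM and called lower with the upper quartile and the authors' constants. The paralogs thus differed from each other in both kinds of library. Untreated mRNA held 2.12 Dst reads for each Macf1 read, and treated mRNA held 6.93, a 3.27-fold difference (2.34 to 4.58). In footprints the same read ratio was 1.44 untreated and 4.97 treated, a 3.44-fold difference (3.01 to 3.93). Since both genes are read from the same libraries, no scaling enters these folds.

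Ahnak (NM_009643) encodes a giant scaffold that binds the annexin A2 and S100A10 complex and calcium channel subunits at the membrane, and it is also abundant in fibroblasts and endothelium. It had 224 reads in untreated mRNA, 15877 in treated mRNA, 5504 in untreated footprints and 3187 in treated footprints. As TMM-scaled CPM this was 1430 in untreated and 4700 in treated mRNA and 1620 and 1940 in footprints, with the wider gap in mRNA. Ahnak mRNA was 3.29-fold higher (2.88 to 3.77), 1.66 log2 units above the median gene, and was called higher under all 6 scalings. Its footprints were at a ratio of 1.2 (1.15 to 1.25), which no scaling brought to the fold threshold and which the authors' constants put at a log2 ratio of −0.01. In bulk muscle such as this, a different number of cells of one type and a different amount of RNA per cell cannot be told apart.

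The reads that the table counts give the amount of transcript and not where transcription starts. For Dst and Ahnak, whose mRNA was called higher under every scaling, and for Myh9, called lower under every scaling, the 250 bases before an annotated start are shown to set their promoters side by side. They are RefSeq sequences of GRCm38.p6, given 5′ to 3′ on the strand of the gene, with capitals for GC boxes (GGGCGG, or CCGCCC where the motif lies on the other strand). Coordinates are of that build only, since the read counts came from another. Dst lies on the plus strand at chr1:34011345-34011594 (a further Dst start, at chr1:34160010-34160259, is not printed), Ahnak on the plus strand at chr19:8989034-8989283 and Myh9 on the minus strand at chr15:77842176-77842425.
Dst: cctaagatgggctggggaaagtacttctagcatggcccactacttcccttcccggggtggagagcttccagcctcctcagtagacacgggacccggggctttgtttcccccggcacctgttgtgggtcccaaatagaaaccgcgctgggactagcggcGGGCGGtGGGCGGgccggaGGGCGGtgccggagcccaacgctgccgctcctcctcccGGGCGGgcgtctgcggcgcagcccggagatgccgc
Ahnak: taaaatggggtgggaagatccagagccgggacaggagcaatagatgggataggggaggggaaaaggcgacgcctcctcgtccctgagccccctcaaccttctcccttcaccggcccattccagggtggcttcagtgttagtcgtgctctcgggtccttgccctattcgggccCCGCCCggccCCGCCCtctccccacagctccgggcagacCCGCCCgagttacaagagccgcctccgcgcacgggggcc
Myh9: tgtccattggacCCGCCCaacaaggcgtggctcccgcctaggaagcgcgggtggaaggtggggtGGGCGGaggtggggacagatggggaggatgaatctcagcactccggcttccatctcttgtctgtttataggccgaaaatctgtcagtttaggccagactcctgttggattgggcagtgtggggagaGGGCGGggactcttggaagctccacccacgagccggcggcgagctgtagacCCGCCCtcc
There were 4 GC boxes in the Dst window, 3 in Ahnak and 4 in Myh9, while 32.7% of 32851 RefSeq promoter windows of this length hold at least 1. The Dst and Ahnak boxes lie within 92 bases of the start, and those of Myh9 are spread from base −238 to base −4. GC content was 68.8%, 66.4% and 62.4% in the same order, against a median of 52.4% over all windows. The other Dst window has no GC box and a GC content of 45.2%. Only Myh9 of the 3 printed windows holds TATAAA on either strand, at bases −123 to −118, as do 12.4% of all windows. No CArG box, the element bound by serum response factor, was found in the 7 windows available for 6 of the genes, and 1.47% of all windows hold one. Repeated GC boxes were thus present beside genes with higher mRNA and beside the gene with lower mRNA, and a match of letters is a description and not a binding site.

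Tln1 (NM_011602) encodes talin 1, the form of talin found in most cells, where it links integrins to actin and activates them. It had 57 reads in untreated mRNA, 1112 in treated mRNA, 1598 in untreated footprints and 588 in treated footprints. Its TMM-scaled CPM were 364 in untreated and 329 in treated mRNA and 469 and 357 in footprints, lower in the treated library of each kind. The mRNA ratio was 0.905 (0.693 to 1.2), an interval that holds 1, but the listed totals and the authors' constants call it lower, at log2 ratios of −0.8 and −1.03. The footprint ratio was 0.762 (0.692 to 0.838), below 1 but under the fold threshold. Tln2, which encodes the talin form more typical of striated muscle, differed from Tln1 in mRNA, where it had only 22 reads in untreated muscle. There were 2.59 Tln1 reads for each Tln2 read in untreated mRNA and 1.37 in treated mRNA, 1.88-fold lower (1.14 to 3.11). In footprints this read ratio was 3.18 and 3.06, and the interval of their fold (0.796 to 1.17) holds 1. Tln2 and the other partner genes named with a member (Myo18a, Myl6) were chosen after their values were seen.

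Dync1h1 (NM_030238) encodes the heavy chain of cytoplasmic dynein 1, the motor that walks toward microtubule minus ends. It had 68 reads in untreated mRNA, 2540 in treated mRNA, 2050 in untreated footprints and 938 in treated footprints. In TMM-scaled CPM it was at 434 in untreated and 752 in treated mRNA and 602 and 570 in footprints, with little between the footprint libraries. Its mRNA was 1.73-fold higher (1.36 to 2.24) with TMM, a call made under 2 of 6 scalings, and its log2 ratio turned to −0.09 with the authors' constants. Relative to the median gene it lay 0.73 log2 units higher. Footprints were level, at 0.947 (0.876 to 1.02). Dync1li1, which encodes a light intermediate chain of the same motor, had 16 and 210 mRNA reads and was called neither way. For each Dync1li1 read there were 4.25 Dync1h1 reads in untreated and 12.1 in treated mRNA, a 2.85-fold difference (1.62 to 4.99). In footprints the read ratio was 12.1 and 12.0, a fold of 0.991 (0.75 to 1.31).

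Myh9 (NM_022410) encodes the heavy chain of nonmuscle myosin IIA, which is abundant in macrophages, endothelium, platelets and fibroblasts and low in mature fibres. It had 62 reads in untreated mRNA, 825 in treated mRNA, 4103 in untreated footprints and 2865 in treated footprints. In TMM-scaled CPM this came to 396 in untreated and 244 in treated mRNA and 1200 and 1740 in footprints, lower with treatment in mRNA and higher in footprints. It was the member with the fewest reads in treated mRNA. Myh9 mRNA was 1.62-fold lower (1.23 to 2.1), 0.75 log2 units below the median gene (−0.75), and was called lower under all 6 scalings, with log2 ratios from −1.58 to −0.7. Its footprints pointed the other way, at 1.45-fold (1.38 to 1.52). That value is just under the threshold with TMM and was called higher only with the total that leaves out the 20 most abundant genes. Of the 7 genes, Myh9 alone had an mRNA ratio called lower and a footprint ratio above 1 under every scaling. Myl6, which encodes an essential light chain of nonmuscle and smooth muscle myosin II, did not share the footprint value. There were 5.15 Myh9 footprints for each Myl6 footprint in untreated and 9.33 in treated muscle, a 1.81-fold difference (1.58 to 2.09), while the same fold in mRNA was 0.858 (0.51 to 1.44).

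Myo18b (NM_028901) had treated to untreated ratios close to those of the median gene. It had 133 reads in untreated mRNA, 2582 in treated mRNA, 1081 in untreated footprints and 428 in treated footprints. The scaled levels were 849 in untreated and 764 in treated mRNA and 317 and 260 in footprints CPM, a little lower in each treated library. Its mRNA ratio was 0.901 (0.756 to 1.08) and its footprint ratio 0.82 (0.731 to 0.918), so neither was called, although the listed totals and the authors' constants call its mRNA lower at log2 ratios of −0.81 and −1.03. Its paralog Myo18a, which is expressed in many cell types, had an mRNA ratio of 0.833 (0.605 to 1.18) and a footprint ratio of 1.02 (0.89 to 1.16). For each Myo18a read there were 3.33 Myo18b reads in untreated mRNA and 3.6 in treated mRNA. In footprints that number was 1.55 untreated and 1.25 treated, 1.24-fold lower (1.04 to 1.47).

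**Figure D2:**
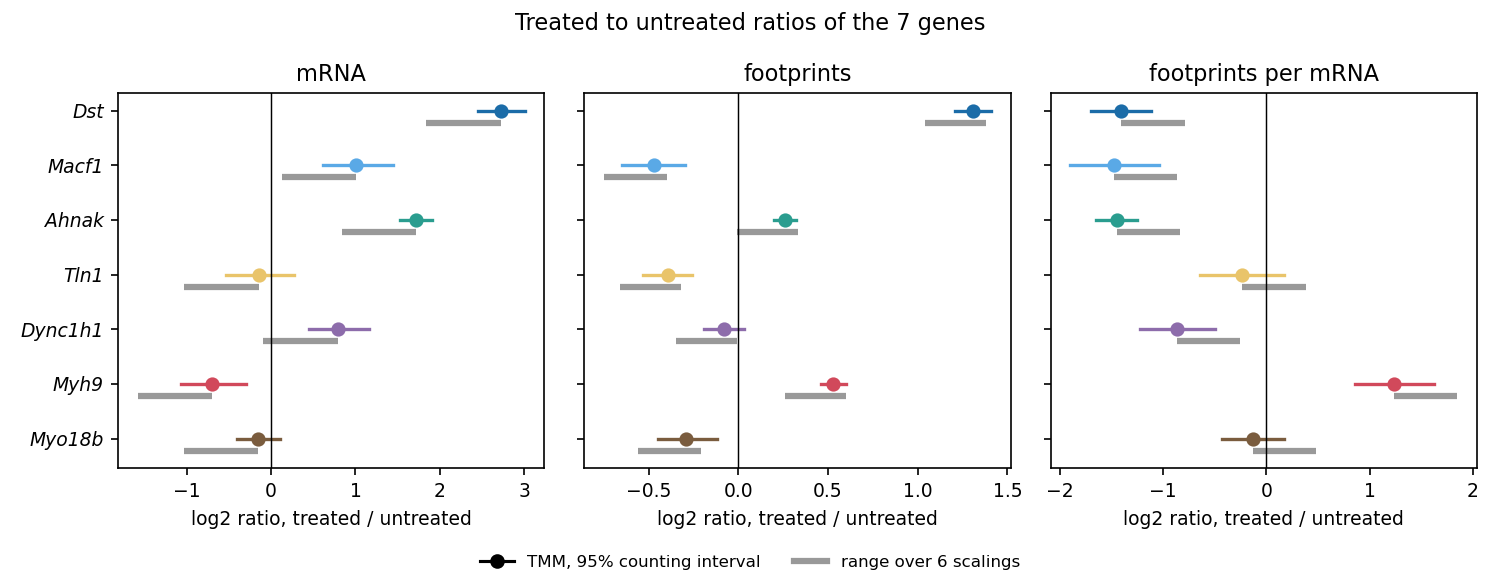
Treated to untreated log2 ratios of the 7 genes in mRNA, footprints and footprints per mRNA, with TMM points, 95% counting intervals and, in grey, the range over 6 scalings. Dst lies right of 0 in mRNA and footprints under each scaling, and Myh9 is the only gene that lies left of 0 in mRNA and right of 0 in footprints.

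The order of the 7 genes could be read without any scaling, from the 21 pairs that they form. The interval of the fold between members excluded 1 in 19 pairs in mRNA and in 18 pairs in footprints. In mRNA the order from highest to lowest ratio was Dst, Ahnak, Macf1, Dync1h1, Myo18b and Tln1 together, and Myh9. Macf1 and Dync1h1 did not differ beyond counting error (1.16-fold, 0.807 to 1.68), nor did Tln1 and Myo18b (1.0-fold, 0.731 to 1.38). Dst stood 10.7-fold (7.77 to 14.7) above Myh9. In footprints Myh9 moved up to the place after Dst, with a 1.71-fold gap (1.58 to 1.86), and Ahnak followed, 1.21-fold (1.13 to 1.29) under Myh9. Macf1, Tln1 and Myo18b were lowest, and no pair of those 3 differed beyond counting error.

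Dividing the footprint ratio by the mRNA ratio gives the difference in footprints per mRNA, a measure of ribosome loading. It was called lower for 4 of the 7 genes and higher for 1, while 31.9% of 995 genes were called lower and 26.0% higher. That background depends on the scaling, as calls of higher made up 45.0% of all calls with TMM and 73.9% with the listed totals. Dst was 2.65-fold lower (2.17 to 3.24), Ahnak 2.74-fold lower (2.38 to 3.14) and Macf1 2.77-fold lower (2.06 to 3.74), each called under all 6 scalings. With the listed totals their log2 ratios shrank to −0.79 for Dst, −0.84 for Ahnak and −0.86 for Macf1. These 3 genes had mRNA ratios from 2.02 to 6.61 and yet nearly the same loading difference. Dync1h1 was 1.82-fold lower (1.41 to 2.34), a call made under 2 of 6 scalings. Myh9 was 2.36-fold higher (1.82 to 3.06), called under all 6 scalings. Tln1 and Myo18b were called neither way, at ratios of 0.849 (0.641 to 1.13) and 0.914 (0.743 to 1.12), and their log2 ratios turned above 0 under 4 of 6 scalings, reaching 0.38 and 0.48.

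Loading was also read within each condition, from its own mRNA and footprint libraries. In untreated muscle Myh9 held 3.02 times (2.35 to 3.88) as many footprints per mRNA read as the median gene and ranked 53rd of 998. In treated muscle it held 7.24 times (6.7 to 7.82) as many and ranked 7th of 997. Whether any Myh9 reads were shared with other myosin genes was not tested. Myo18b was the lowest of the 7 in untreated muscle, and lay 2.68-fold (2.24 to 3.21) below the median gene untreated and 2.89-fold (2.61 to 3.2) below it treated. Ahnak, Macf1 and Tln1 had untreated intervals that hold the median gene, but with 5 in place of 0.5 added to each count those of Ahnak (0.17 to 0.56 log2 units) and Tln1 (0.1 to 0.83) no longer did. In treated muscle Ahnak lay 2.39-fold (2.3 to 2.48), Macf1 2.78-fold (2.5 to 3.1) and Dst 3.89-fold (3.71 to 4.08) below the median, and Dst was the lowest of the 7. Dync1h1 lay 0.46 log2 units above the median gene (0.11 to 0.81) in untreated muscle and at −0.38 (−0.48 to −0.27) in treated muscle. Footprints fall on coding sequence and mRNA reads also on untranslated parts, and the part of untranslated sequence in these values was not tested.

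**Figure D3:**
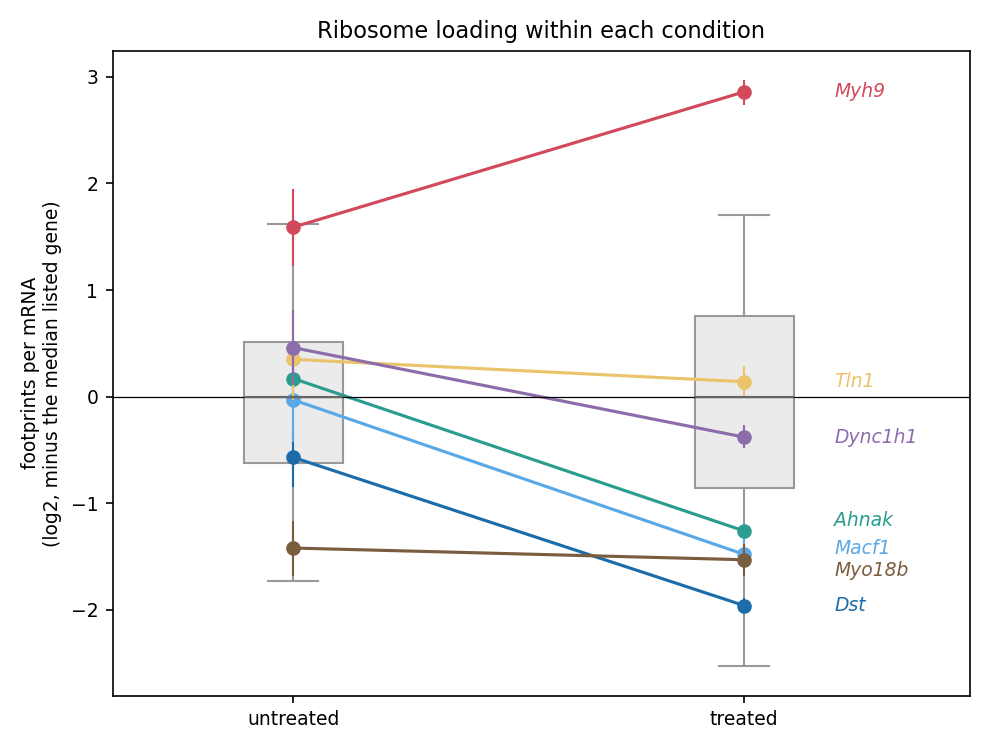
Footprints per mRNA of the 7 genes within untreated and treated muscle, as log2 minus the median listed gene, with 95% counting intervals. Grey boxes give the quartiles of all genes with enough reads and their whiskers the 5th to 95th percentile. Myh9 lies at 1.59 in untreated and 2.86 in treated muscle. Dst, Macf1, Ahnak and Dync1h1 lie lower in treated muscle, and Tln1 and Myo18b lie near their untreated values there.

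Large size is what these proteins share, so they were set beside 76 other listed genes known to encode very large proteins, a list made by hand from general knowledge with results in view. Of those 76 genes, 60 (78.9%) were called higher and 3 (3.95%) lower in treated mRNA with TMM, against 31.8% and 24.8% of all genes. Their median lay 1.31 log2 units above that of all genes. In footprints 25 (32.9%) were called higher and 8 (10.5%) lower, against 19.9% and 26.2% of all genes, with a median 0.42 above. In footprints per mRNA 2 (2.63%) were called higher and 46 (60.5%) lower, against 26.0% and 31.9% of all genes, with a median at −0.83. These list counts were made with TMM only. The lower loading of Dst, Ahnak, Macf1 and Dync1h1 is thus shared by most genes of that list. Dst was still near its top in mRNA, with 73 of the 76 genes below it. Tln1 and Myo18b lay low, each with 6 of the 76 genes below it in mRNA. For Myh9, 75 of the 76 genes lay below it in the treated to untreated difference in footprints per mRNA. Among all 995 genes it ranked 130th from the top in that difference. All 76 genes lay below Myh9 in loading within treated muscle. Sarcomeric myosin heavy chain genes were not among the 76, and their differences in footprints per mRNA were mixed. Relative to the median gene, Myh1 lay at 0.44, Myh4 at −0.26 and Myh7 at −2.04 log2 units. The 4 genes of that list with the most reads, Ttn, Neb, Ryr1 and Cmya5, encode 2 giant sarcomere proteins, the calcium release channel and a sarcomere-associated protein. They lay 2.21, 2.44, 0.97 and 2.37 log2 units above the median gene in mRNA and at 1.41, 0.29, 0.76 and 0.88 in footprints, in the same order.

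**Figure D4:**
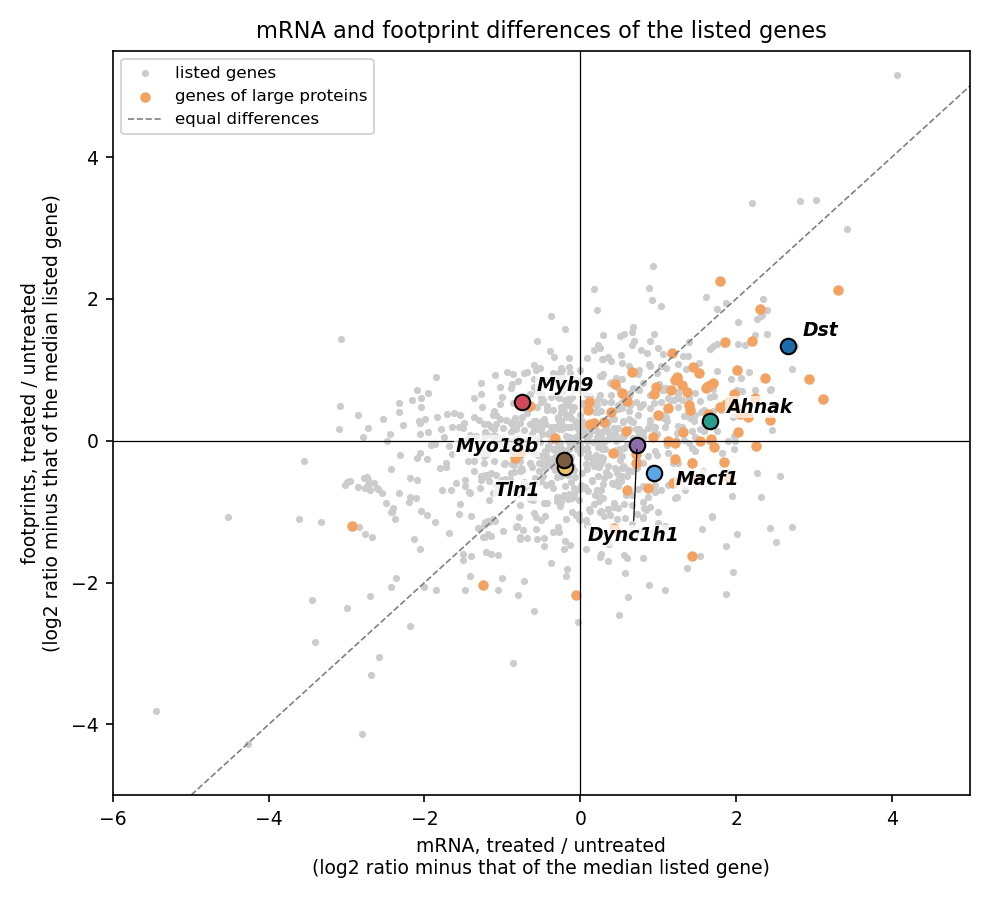
Treated to untreated log2 ratios in mRNA (horizontal) and footprints (vertical) of the listed genes, each minus the median gene; grey points are listed genes, orange points 76 genes of large proteins, and the 7 named points are the genes described here. Most orange points lie right of 0 and below the dashed line of equal differences, as do Dst, Ahnak, Macf1 and Dync1h1, whereas Myh9 lies left of 0 and above the line.

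Other genes of the same structures were read from lists, with calls under TMM and members left out. Over all genes, 31.8% were called higher and 24.8% lower in mRNA, and 19.9% and 26.2% in footprints. From a list of plakins, nuclear envelope linkers and related genes, 4 were listed, none of them a plakin. In mRNA 2 of these 4 were called higher (Clip1 and Syne1) and 2 lower (Des and Lmna). Clip1, which encodes a microtubule plus-end linker, lay 2.03 log2 units above the median gene in mRNA and 1.37 above it in footprints. Syne1, which encodes the nuclear envelope spectrin-repeat protein nesprin 1, lay 1.18 and 1.24 above it. The intermediate filament genes Des (desmin) and Lmna (lamin A/C) lay at −1.06 and −0.76 in mRNA, and Des at −2.11 in footprints.

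Of 11 listed genes of talin and integrin adhesion, 6 were called higher and 2 lower in mRNA, and 2 higher and 3 lower in footprints. Flnc, the muscle filamin, lay 0.31 above the median gene in mRNA and 0.27 in footprints. Ldb3, a Z-disc PDZ and LIM protein, lay 0.56 and 0.65 above it. Hspg2, which encodes the basement membrane proteoglycan perlecan, lay 0.6 above it in mRNA and at −0.7 in footprints. Actn1, the nonmuscle alpha-actinin, lay at −0.78 and −0.9. The list median was 0.56 above all genes in mRNA and at −0.34 in footprints.

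The 12 listed genes of nonmuscle myosin and actin had a median at −0.43 in mRNA and −0.09 in footprints, with 2 called higher and 4 lower in mRNA and 0 higher and 3 lower in footprints. The cytoplasmic actins Actb and Actg1 were near the median gene, at −0.13 and −0.12 in mRNA and −0.39 and −0.23 in footprints. Their reads can be shared with other near-identical actin genes. 2900073G15Rik, named Myl12a in RefSeq and encoding a regulatory light chain of nonmuscle myosin II, lay at −0.6 in mRNA and 0.28 in footprints. It was called higher in footprints per mRNA, as was Myh9. Of the 12 listed genes, 3 were called higher and 1 lower in footprints per mRNA, against 26.0% and 31.9% of all genes. Myl6 was called neither way. Ppp1cb, a catalytic subunit of the phosphatase that acts on myosin light chains, lay 1.96 above the median gene in mRNA and 0.34 in footprints.

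Only 3 genes of dynein, dynactin and kinesin other than Dync1h1 were listed. Kif1c, a kinesin that moves toward plus ends, lay 2.43 above the median gene in mRNA and 0.3 in footprints. Capzb, an actin capping subunit also found in dynactin, lay at −0.06 and −1.04. Of 10 microtubule genes, 3 were called higher and 5 lower in mRNA, and 1 higher and 4 lower in footprints. Tuba4a, an adult alpha-tubulin, lay 1.3 above the median gene in mRNA and Mtap4, a microtubule-associated protein named Map4 in RefSeq, 0.76. Tuba1b and Tuba1a, alpha-tubulins with closely similar coding sequences that could share reads, lay at −1.02 and −1.01.

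Of 9 listed genes around Ahnak and membrane repair, 2 were called higher and 5 lower in mRNA, and 2 higher and 3 lower in footprints. Cacna1s, the voltage sensor channel of the T-tubule, lay 2.32 above the median gene in mRNA and at −0.79 in footprints. Anxa6, an annexin of membrane repair, lay at −0.98 and −0.33. Bin1, which shapes T-tubules, lay at 0.18 and −0.89, and Murc, a caveola protein named Cavin4 in RefSeq, at 1.26 and 0.63. In a list of 6 genes of the spectrin family, dystrophin and ankyrin, added after the data were seen, 5 were called higher and 0 lower in mRNA, and 3 higher and 0 lower in footprints. Spnb2 and Spnb1, which encode beta-spectrins of the membrane skeleton, lay 1.87 and 1.71 above the median gene in mRNA and 0.52 and 0.81 in footprints. Like Dst, 4 of these 6 genes lay at least 1.5 log2 units above the median gene in mRNA.

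The genes most like each member were found by Euclidean distance over 3 values (mRNA log2 ratio, footprint log2 ratio and untreated log2 loading) among 995 genes. Nearest to Dst were Vldlr, a lipoprotein receptor, at a distance of 0.32, then Cmya5, a large sarcomere-associated protein, at 0.56 and the lipid droplet gene Plin4 at 0.58. Ahnak was nearest to Prune2 (0.21), Ranbp2 (0.24) and Srp54c (0.33), and Macf1 to Metap2 (0.19), Actn3 (0.19) and Rps25 (0.27). Tln1 lay 0.12 from each of Ddb1, Prdx2 and Cox7a2. Among the genes close to Dync1h1 were Copa (0.2) and Cast (0.21), and Myo18b was nearest to Rpl21 (0.17), Rps6 (0.22) and Mrpl15 (0.35). Myh9 had no close neighbour, since its nearest genes Ywhag, Ldhb and Vim lay at 0.66, 0.73 and 0.81.

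Markers of other cell types differed between the libraries beside these values. Skeletal muscle, the labelled tissue, was seen in fibre markers, of which 9 of 10 were listed, with a summed level of 246700 to 323700 TMM-scaled CPM over the 4 libraries. Of 10 macrophage markers 5 were listed, and all 5 were called lower in mRNA and in footprints with TMM. Their summed level was 1091 in untreated and 247.8 in treated mRNA, and 1420 and 643.7 in footprints. Of 10 fibroblast and matrix markers 8 were listed, with 5 lower and 2 higher in mRNA and 7 lower and 0 higher in footprints. Their sums, untreated and treated, were 17650 and 3867 in mRNA and 27870 and 6061 in footprints. Of 10 endothelial and smooth muscle markers 2 were listed (Acta2 and Flna), with sums of 574.4 and 595.9 in mRNA and 3587 and 2760 in footprints, and 0 of 4 Schwann cell markers were listed. No listed marker was at 0 in any library. Tln1, Ahnak and Myh9 are also expressed by such cells, and the part of cell makeup in their ratios was not tested.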

How the data were processed

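Per the file headers, the authors deposited for each of the 4 libraries a read count per gene and a normalized read count. The authors deposited those normalized values already computed, and they are read here as CPM, a scale inferred from the values. In each library a single multiplier turned counts into them, to within 0.2, for at least 99.9% of genes. Per the submitters' processing notes, the tools included Trimmomatic, STAR and edgeR, and the build was mm9. The counter and its rules for strand and multiple alignments were not given in the sources used here. Rows are the genes with the most untreated mRNA reads, down to 14, so a gene low in that library is not in the table.

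Counts were scaled by TMM (edgeR 4.0.16, R 4.3.3) over the listed genes. Intervals of ratios are exact conditional binomial, from scipy 1.17.1, and those of footprints per mRNA and of folds between genes are normal on the log scale, with 0.5 added to counts for footprints per mRNA. Reads carry no molecular identifiers, so intervals cover counting error only. The calculation was run on simulated counts that held counting error only, with the library sizes supplied. That run did not test the scaling or any spread between animals. Other scalings were DESeq2 1.42.0 size factors, listed totals, upper quartile, totals without the 20 most abundant genes and the authors' constants.

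Named genes were the members, up to 4 genes with the most reads from each list, and the 3 nearest genes to each member, of which 1 is not reported here. The members and lists were chosen with earlier results of these data known. Levels per kb and a grouping by protein length had been planned and were not made, because no table of coding lengths was used here. Of 1000 RefSeq identifiers, 996 matched the RefSeq gene table of GRCm38.p6, used for names, among them all 7 members.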

Additional observations from a re-analysis of the deposited data

How the results depend on the processing

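Scaling decided several calls. With TMM 4 of the 7 genes were called higher and 1 lower in mRNA. With the listed totals and with the authors' constants 2 were called higher (Dst and Ahnak) and 3 lower (Tln1, Myh9 and Myo18b), and at a 2-fold threshold 0 were called lower. Of all 996 genes, 148 were called higher and 464 lower with the listed totals, and 110 and 543 with the authors' constants. At the 2-fold threshold 214 of all genes were called higher and 179 lower. Dync1h1 mRNA reversed to a log2 ratio of −0.09 with the authors' constants. In footprints 2 genes (Dst and Myh9) were called higher without the 20 most abundant genes, 1 (Macf1) lower with the upper quartile, and 2 (Macf1 and Tln1) lower with the authors' constants. Counts of calls in footprints per mRNA stayed within 1.5 times the TMM counts under the alternatives run, from 3 to 4 lower and 1 higher. Of all 995 genes, 317 were called lower and 259 higher with TMM, and 157 and 444 with the listed totals. Over all listed genes, those higher made up 56.2% of mRNA calls with TMM, 40.7% when totals left out the 20 most abundant genes, 35.7% with the upper quartile, 24.2% with listed totals and 16.8% by the constants of the authors. In footprints the share was 43.2% with TMM and 23.8% with the authors' constants. In footprints per mRNA it was 45.0% with TMM, 60.0% with the upper quartile, 63.8% leaving out the 20 most abundant genes, 73.8% by the constants of the authors, 73.9% with listed totals and 56.6% with 5 added to each count. Of 112 single-gene ratios under alternatives, 57 stayed inside their TMM interval. The sign changed in 10, of which 1 was called with TMM (Dync1h1 mRNA) and 9 were not (Tln1 and Myo18b in footprints per mRNA under 4 scalings each, Ahnak footprints under 1). With 5 added to each count, an alternative chosen after seeing the data, all 14 values of loading within a condition stayed inside their intervals, while the untreated intervals of Ahnak and Tln1 no longer held the median gene. No paired analysis was possible because each group had 1 library, and for the same reason no library could be left out. Reads per kb and transcript lengths were not run. Depth limits the mRNA ratios, as untreated mRNA held 51 to 68 reads for Macf1, Tln1, Myh9 and Dync1h1.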
